A study of Mus musculus with 6 samples.

Results

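The genes described here are 36 regulators of epidermal differentiation, almost all of them transcription factors, taken by name from a list. The platform annotation gave a probe set of its own to 35 of the 36, and 33 of these passed a filter on dim signal, out of 11387 genes that passed it. Chuk, the kinase subunit known for a nuclear role in epidermal differentiation, was named by none of the probe sets in the annotation used here. Ehf and Ppara had only probe sets below the filter. Each of 6 arrays carried the back skin RNA of 1 mouse embryo taken at e18.5, and 3 of the mice were labelled Get1 +/+ and 3 Get1 -/-. Get1 is the former name of Grhl3, a grainyhead-like transcription factor. The labels give neither the strain, the sex, the litter nor the targeted part of the gene, and the only difference they state between the groups is the Get1 genotype. Whole skin was used, so dermis, muscle, vessels and hair follicles contributed RNA beside the epidermis.

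Keratinocytes leave the basal layer, where Trp63 maintains their epithelial identity, and then pass through spinous and granular stages under factors such as Klf4, Zfp750, Prdm1, Ovol1, Gata3 and the C/EBP proteins. In keratinocytes these later factors are described as turning on envelope, keratin and lipid genes, as repressing genes or as ending proliferation. Grhl3 acts in the same late stage, and mice without it lack a working skin barrier at birth. Values are MAS5 signals in arbitrary units, already scaled between arrays, given as mean ± SD (n = 3 per genotype). A lower or higher mean refers to the mean log2 signal. A log2 difference is Get1 -/- minus Get1 +/+ with its standard error (SE) from limma, a linear model with a moderated variance. The threshold was a Benjamini-Hochberg adjusted p under 0.05 over all 11387 genes. Nothing in the labels says that the mice came from separate litters, so the p-values measure the spread between these arrays.

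The array series as a whole held few calls. In limma 5 of the 11387 genes passed the threshold, which is 0.0439% of them. Grhl3 read 478, 934 and 670 in Get1 +/+ and 246, 413 and 380 in Get1 -/- skin, and its log2 difference of -0.98 ± 0.28 did not pass (adjusted p = 0.497). Whether its probe set lies inside the targeted part is not stated in the labels. All 6 basal and all 6 suprabasal keratinocyte markers passed the signal filter. So did all 8 markers each of skeletal muscle, dermal fibroblasts, endothelium and hair follicle, so passing does not single out the epidermis. The arrays were split at the largest gap in the mean log2 signal of the beta-actin control probe sets. The middle control read 18407 to 19858 in the high set and 10118 to 13060 in the low set. The first holds Get1 +/+ replicates 1 and 2 and Get1 -/- replicate 1, and the second holds Get1 +/+ replicate 3 and Get1 -/- replicates 2 and 3. On the 3′ and 5′ controls Get1 -/- replicate 3 lay between the rest of its set and the high set. Its 5′ control read 19782, against at most 17074 in the rest of the low set and at least 21766 in the high set. The split is thus less clear on those controls.

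Most of the transcription factors read lower in Get1 -/- skin, and none passed the threshold. The genes were chosen with earlier results of these data known. The contrasts with all genes therefore describe the set and were not tested. Of the 33 measured, 26 had a lower mean and 7 a higher one, against 48.7% lower among all genes tested. Their median log2 difference was -0.27, with quartiles of -0.48 and -0.02, against a median of 0.0076 over all genes. In limma 0 of 33 rose and 0 of 33 fell. At an unadjusted p under 0.05 there were 7 with a lower mean (21.2% of the 33), where 4.29% of all genes read lower at that level. With 1 array left out that count ran from 3 (Get1 -/- replicate 1 left out, 2.52% of all genes) to 9 (Get1 +/+ replicate 1 left out, 6.96%). It was 4 when Get1 -/- replicate 3 (2.92%) or Get1 +/+ replicate 2 (2.45%) was left out. Over all 6 arrays there were 0 with a higher mean, where the share of all genes was 3.89%. All Get1 -/- arrays lay below all Get1 +/+ arrays for 4 of the 33 (12.1%), against 6.78% of all genes, and above them for 0, against 5.2%. The 4 are Hopx, Pou2f3, Prdm1 and Cebpb. Among the 33 measured family relatives outside the set, 4 also lay wholly below (12.1%) and 1 wholly above, so this share is not particular to the set. With 5 arrays separation is easier for every gene. With Get1 +/+ replicates 1, 2 and 3 left out in turn, 9, 6 and 6 of the 33 lay wholly below, against 17.6%, 10.6% and 9.19% of all genes. With Get1 -/- replicates 1, 2 and 3 left out, 7, 10 and 6 did, against 10%, 12.6% and 11%. At most 1 lay wholly above in each of these 6 sets, against 7.26% to 16.9% of all genes. Centring each array on its median gave 3 wholly below and 0 above, where the shares of all genes were 3.71% and 6.12%. In whole skin, fewer keratinocytes of a stage and less RNA in each of them cannot be told apart.

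**Figure D1:**
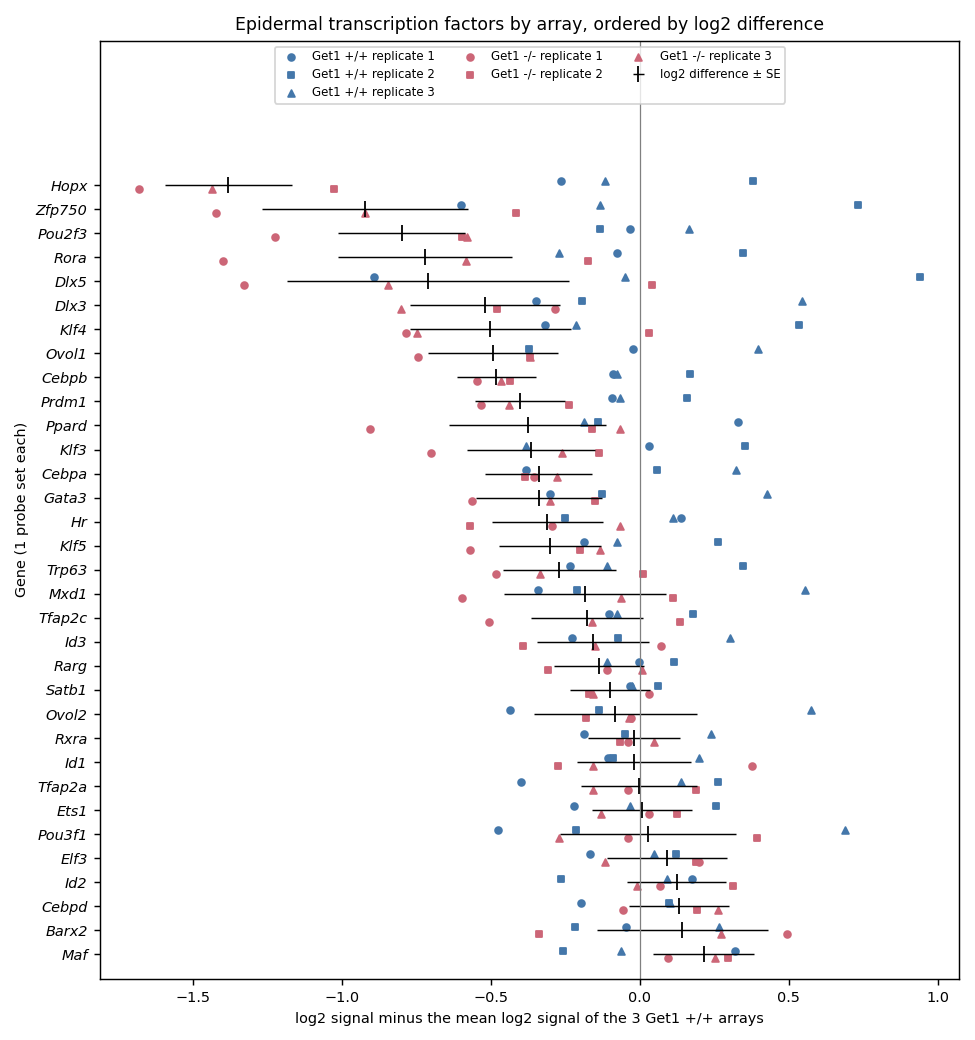
Each row is 1 transcription factor, and each point is the log2 signal of 1 array minus the mean log2 signal of the 3 Get1 +/+ arrays. Vertical ticks with lines give the log2 difference between genotypes ± SE. Rows are ordered by that difference, from Hopx (-1.38) to Maf (0.21), and most ticks lie left of 0.

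Hopx, a small homeodomain protein without DNA contacts of its own that marks differentiating keratinocytes, had the lowest p of the set. It read 5533, 8655 and 6132 in Get1 +/+ skin and 2073, 3258 and 2457 in Get1 -/- skin. The highest Get1 -/- array lay well below the lowest Get1 +/+ array. The mean was 6774 ± 1657 against 2596 ± 604, a log2 difference of -1.38 ± 0.21 or a 2.61-fold lower level (limma, unadjusted p = 9.99e-05, adjusted p = 0.0986). The second Hopx probe set gave 1893, 3070 and 2078 against 785, 1319 and 921, a log2 difference of -1.22 ± 0.25, again without overlap. Hopx passed the threshold in 3 of 16 alternatives. These left out Get1 +/+ replicate 1 (log2 difference -1.51, adjusted p = 0.033), weighted the arrays (adjusted p = 0.043) or took the replicate number as a block (adjusted p = 0.0113). In them 122, 8 and 44 of all genes passed (1.07%, 0.0703% and 0.386%). Over all 16 its adjusted p ran from 0.0113 to 0.474. Its log2 difference stayed between -1.56 and -1.19 when each array was left out in turn.

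Pou2f3, a POU factor of suprabasal epidermis also known as Skn-1a, read 645, 602 and 740 in Get1 +/+ and 282, 437 and 441 in Get1 -/- skin. All 3 Get1 -/- arrays were lower, replicate 1 most of all. The log2 difference was -0.80 ± 0.21 (unadjusted p = 0.00415, adjusted p = 0.469). Cebpb, a bZIP factor that acts with Cebpa in the exit from the basal layer, read 3956, 4727 and 3989 against 2882, 3115 and 3050. Its Get1 -/- arrays were the closest to one another of these 4 genes. The log2 difference was -0.48 ± 0.13 (unadjusted p = 0.00511, adjusted p = 0.485), and the other Cebpb probe set gave -0.52 ± 0.21 without overlap. Prdm1, also known as Blimp1, a repressor of the granular layer and of sebaceous progenitors, read 1782, 2120 and 1816 against 1314, 1609 and 1402. The genotypes did not overlap, and the log2 difference was -0.40 ± 0.15 (unadjusted p = 0.0249, adjusted p = 0.58). Pou2f3, Cebpb and Prdm1 did not pass in any alternative that was run.

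**Figure D2:**
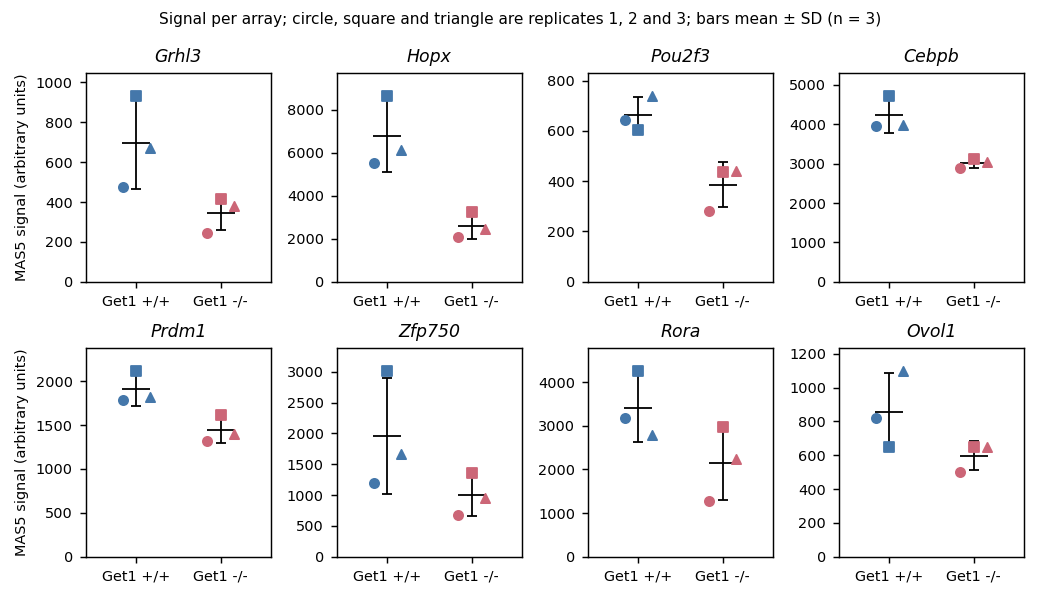
MAS5 signal per array (arbitrary units, axes from 0) for Grhl3 and for the 7 transcription factors with an unadjusted p under 0.05. Circles, squares and triangles are replicates 1, 2 and 3, and bars give mean ± SD (n = 3). Genotypes do not overlap for Grhl3, Hopx, Pou2f3, Cebpb and Prdm1, and they overlap for Zfp750, Rora and Ovol1.

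The sequences just upstream of the starts of Hopx, Prdm1 and Cebpb are shown because these genes read lower on every Get1 -/- array and a grainyhead element, if one lies close to the start, would lie there. RefSeq windows (build GRCm38.p6) were held for 20 of the 36 genes, in 28 windows. Pou2f3, the other gene without overlap between genotypes, has no sequence here. Each sequence runs 5′ to 3′ on the gene's strand and ends at the base before the annotated start, so none of it is transcribed from that start. Capitals mark a CCAAT box (CCAAT) or a GC box (GGGCGG) on either strand. Hopx has 2 annotated starts, at chr5:77115124-77115373 and chr5:77095268-77095517, both on the minus strand. The Prdm1 window is chr10:44458749-44458998, minus strand, and the Cebpb window is chr2:167688665-167688914, plus strand.
Hopx, start 1: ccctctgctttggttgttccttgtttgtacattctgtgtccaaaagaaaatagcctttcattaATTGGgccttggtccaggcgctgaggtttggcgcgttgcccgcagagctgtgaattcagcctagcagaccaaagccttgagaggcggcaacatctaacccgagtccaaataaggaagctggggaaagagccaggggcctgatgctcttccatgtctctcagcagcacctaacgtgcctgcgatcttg
Hopx, start 2: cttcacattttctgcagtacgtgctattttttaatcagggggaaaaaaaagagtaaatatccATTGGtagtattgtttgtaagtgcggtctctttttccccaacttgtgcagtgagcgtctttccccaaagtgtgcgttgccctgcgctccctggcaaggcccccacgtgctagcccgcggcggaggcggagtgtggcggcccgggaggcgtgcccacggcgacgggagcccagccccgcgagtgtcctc
Prdm1: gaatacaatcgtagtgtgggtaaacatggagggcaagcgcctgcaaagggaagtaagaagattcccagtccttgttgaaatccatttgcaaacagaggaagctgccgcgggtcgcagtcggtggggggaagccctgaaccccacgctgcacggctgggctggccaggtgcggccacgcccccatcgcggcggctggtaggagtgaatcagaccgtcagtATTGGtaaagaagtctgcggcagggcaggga
Cebpb: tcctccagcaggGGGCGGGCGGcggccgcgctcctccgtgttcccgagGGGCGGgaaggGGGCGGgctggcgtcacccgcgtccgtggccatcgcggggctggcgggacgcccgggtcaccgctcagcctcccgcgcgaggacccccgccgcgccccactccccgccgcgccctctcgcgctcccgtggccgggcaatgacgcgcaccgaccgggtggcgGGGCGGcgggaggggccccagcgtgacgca

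The grainyhead palindrome AACCGGTT, searched on both strands, was in 0 of the 28 windows of these regulators, where 0.116% of all 32851 windows hold it. That says only that these letters are not in these windows. The Cebpb window was the richest in G and C of the 4 (81.6%) and holds 5 GC boxes, 2 of which share bases, while both Hopx windows and the Prdm1 window hold 1 CCAAT box and 0 GC boxes. The regulators' windows had a median of 62.0% G and C, against 52.4% for all windows, and the part of this in the shares that follow was not tested. A GC box was in 53.6% of the regulators' windows and in 32.7% of all windows. A CCAAT box was in 28.6% against 33.8%, and a TATA box (TATAAA) in 3.57% against 12.4%. These matches are descriptions of sequence and were not related to the array values.

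Zfp750, a zinc finger target of Trp63 that works upstream of and together with Klf4, had the second largest difference. It read 1201, 3021 and 1660 in Get1 +/+ and 678, 1363 and 958 in Get1 -/- skin. Get1 +/+ replicate 2 was far above the other arrays, and Get1 -/- replicate 2 lay above Get1 +/+ replicate 1, so the genotypes overlapped. The log2 difference was -0.92 ± 0.35 (unadjusted p = 0.0252, adjusted p = 0.58), and it was -0.56 without Get1 +/+ replicate 2.

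The Kruppel-like factors all had lower means. Klf4, needed for the skin barrier in newborn mice, read 7473, 13526 and 8036 against 5410, 9522 and 5551. Replicate 2 was the highest array of each genotype, and Get1 -/- replicate 2 exceeded the other Get1 +/+ arrays. The log2 difference was -0.50 ± 0.27 (95% interval -1.11 to 0.11, adjusted p = 0.653), and it was -0.23 without Get1 +/+ replicate 2 and -0.77 without Get1 -/- replicate 2. Its other probe set gave -0.74 ± 0.35. Klf5, a factor of basal keratinocytes, read 4341, 5926 and 4683 against 3329, 4292 and 4503, with a log2 difference of -0.30 ± 0.17, or -0.17 without either Get1 +/+ replicate 2 or Get1 -/- replicate 1. Klf3, a repressor partner of CtBP, had 6 kept probe sets, all with a lower mean. The brightest read 4315, 5398 and 3238 against 2601, 3844 and 3523 and overlapped (-0.37 ± 0.21). It gave -0.19 without Get1 +/+ replicate 2, -0.20 without Get1 -/- replicate 1 and -0.56 without Get1 +/+ replicate 3. Among the dimmer Klf3 probe sets, 1 read 638, 825 and 745 against 393, 399 and 329, a log2 difference of -0.98 ± 0.18 (unadjusted p = 0.000536), and another gave -0.92 ± 0.22. Both were free of overlap, and neither passed over the kept probe sets (adjusted p = 0.371 and 0.625). The difference for Klf3 thus ran from -0.98 to -0.08 with the probe set taken.

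Ovol1, a zinc finger repressor that ends proliferation of keratinocytes, read 823, 647 and 1100 against 499, 648 and 648. Get1 +/+ replicate 2 had the same level as the higher Get1 -/- arrays. The log2 difference was -0.49 ± 0.22 (limma, unadjusted p = 0.0495, adjusted p = 0.608), or -0.30 without Get1 +/+ replicate 3. Fitted among the kept probe sets, the same probe set had an unadjusted p of 0.0591 in limma. The dimmer Ovol1 probe set gave -0.29 ± 0.29. Ovol2, its paralog, known for keeping cells epithelial, read 179, 220 and 361 against 237, 214 and 236, a difference of -0.08 ± 0.27 that rested on Get1 +/+ replicate 3 and was 0.21 without it. Gata3, a factor of barrier lipid synthesis and of the inner root sheath, read 1396, 1574 and 2315 against 1163, 1549 and 1396. Its groups overlapped, and the log2 difference was -0.34 ± 0.21, or -0.12 without Get1 +/+ replicate 3.

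Trp63, a p53 relative, and the AP-2 and Dlx factors act in the identity and early commitment of the epidermis. The brightest Trp63 probe set read 4085, 6104 and 4447 against 3434, 4838 and 3806, with a log2 difference of -0.27 ± 0.19 (95% interval -0.70 to 0.16). It was -0.098 without Get1 +/+ replicate 2, -0.16 without Get1 -/- replicate 1 and -0.41 without Get1 -/- replicate 2. The other kept Trp63 probe sets gave -0.73 ± 0.37, -0.60 ± 0.31 and -0.20 ± 0.56. All 4 had a lower mean and overlapped between genotypes, and the last held a single high array, Get1 -/- replicate 1 (1086). Tfap2a, an AP-2 factor of surface ectoderm, read 1664, 2632 and 2418 against 2138, 2501 and 1968, a difference of -0.0034 ± 0.20. Its dimmer probe sets gave -0.35 ± 0.19 and -0.36 ± 0.17. Tfap2c differed by -0.18 ± 0.19. Dlx3, a homeobox factor of the granular layer and hair, read 566, 630 and 1051 against 592, 517 and 414, so that Get1 -/- replicate 1 lay above the lowest Get1 +/+ array. Its log2 difference was -0.52 ± 0.25 (unadjusted p = 0.0673), or -0.25 without Get1 +/+ replicate 3, and the second Dlx3 probe set gave -0.79 ± 0.27 without overlap. Dlx5 had the widest spread of the set, 166, 593 and 299 against 123, 318 and 172, and differed by -0.71 ± 0.47. That value was -0.24 and -0.40 without Get1 +/+ replicate 2 and Get1 -/- replicate 1, and -1.16 and -1.09 without Get1 +/+ replicate 1 and Get1 -/- replicate 2.

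All 4 measured nuclear receptors had a lower mean. Rora, an orphan receptor of suprabasal keratinocytes, read 3180, 4267 and 2779 against 1270, 2971 and 2235. Get1 -/- replicate 1 was the lowest array, and Get1 -/- replicate 2 overlapped the Get1 +/+ range. The log2 difference was -0.72 ± 0.29 (unadjusted p = 0.0353, adjusted p = 0.589), and -0.38 without Get1 -/- replicate 1. All 7 kept Rora probe sets had a lower mean, from -0.90 to -0.17. Rxra, the common partner of these receptors, read 1728, 1903 and 2322 against 1914, 1879 and 2037, a difference of -0.02 ± 0.15 (95% interval -0.37 to 0.33). Rarg, the main retinoic acid receptor of epidermis, differed by -0.14 ± 0.15, with an interval of -0.48 to 0.20. Ppard, a lipid-sensing receptor of keratinocytes, differed by -0.38 ± 0.26 and was lowest on Get1 -/- replicate 1 (201, with the other arrays between 330 and 472). It gave -0.11 without that array and -0.21 without Get1 +/+ replicate 1. Hr, the hairless corepressor that binds such receptors, differed by -0.31 ± 0.19 (-0.18 without Get1 -/- replicate 2), and its dimmer probe set by -0.55 ± 0.22 without overlap. Ppara lay below the signal filter, at 68 to 145 against 61 to 170.

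Cebpa, the partner of Cebpb in the epidermis, read 3299, 4469 and 5379 against 3359, 3287 and 3545, with a log2 difference of -0.34 ± 0.18. Leaving out Get1 +/+ replicate 3 made it -0.18, and leaving out Get1 +/+ replicate 1 made it -0.53. Its Get1 -/- arrays were alike, and the spread lay in Get1 +/+ skin. Cebpd, more often linked to acute responses, had a higher mean by 0.13 ± 0.17. The Id genes, helix-loop-helix inhibitors of basal and progenitor states, differed by -0.02 ± 0.19 (Id1), 0.12 ± 0.17 (Id2) and -0.16 ± 0.19 (Id3). The second Id2 probe set read 1010, 900 and 1028 against 1146, 1133 and 1194 and was the only one of the 71 kept probe sets with all Get1 -/- arrays above all Get1 +/+ arrays (0.24 ± 0.15, unadjusted p = 0.133), where 4.63% of all kept probe sets lay so.

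Of the rest, Maf had the highest positive difference (0.21 ± 0.17). This large Maf factor acts in late keratinocyte differentiation and also in macrophages. Barx2 (0.14 ± 0.29) and Elf3 (0.09 ± 0.20), a homeobox and an epithelial Ets factor, were dim, at 123 to 218 and 226 to 292 over all arrays, and Ehf, another epithelial Ets factor, lay below the filter at 54 to 161. Pou3f1, a POU factor that overlaps with Pou2f3 in epidermis, differed by 0.03 ± 0.30 and ranged from 999.8 to 2238 within Get1 +/+ skin alone. Satb1, a chromatin organizer of epidermal progenitors, read 2195, 2345 and 2207 against 2295, 1996 and 2014 and had the tightest Get1 +/+ values for its level (-0.10 ± 0.13, 95% interval -0.40 to 0.20). Mxd1, a Myc antagonist of differentiated cells, differed by -0.18 ± 0.27, and Ets1, present in basal cells, endothelium and lymphocytes, by 0.01 ± 0.17. For 15 of the 33 genes the log2 difference was smaller than its SE, and the intervals show how much they could still differ.

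Dimmer probe sets of the same genes were read as a check. The 35 genes had 91 probe sets of their own, of which 71 passed the filter, and 20 genes had more than 1. Every kept probe set had a lower mean in 15 of these 20, among them Klf3, Klf4, Rora, Trp63 and Hopx. Every one had a higher mean for Pou3f1 and Id2, and Maf, Satb1 and Ets1 had both directions. Of the 38 kept probe sets other than the brightest, 31 had a lower mean, with a median log2 difference of -0.36. At an unadjusted p under 0.05 there were 8 with a lower mean (21.1%), against 3.76% of all 22519 kept probe sets, and 9 lay wholly below Get1 +/+ (23.7%), against 6.51%. Probe sets of 1 gene share their RNA and are not separate evidence, and 0 of the 71 passed over all kept probe sets in limma (lowest adjusted p = 0.177).

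**Figure D3:**
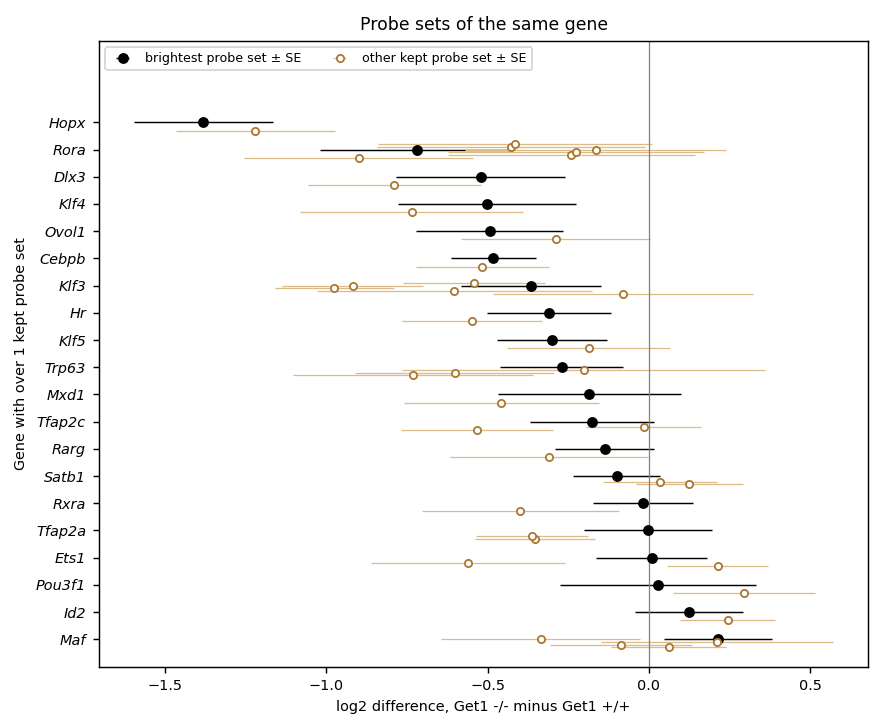
The log2 difference ± SE of each kept probe set for the 20 genes that had more than 1, with the brightest filled and the others open. For Klf3 and Trp63 the dimmer probe sets lie on both sides of the brightest one, and for Maf, Satb1 and Ets1 the kept probe sets lie on both sides of 0.

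The arrays of a genotype did not vary in the same way for all of these genes. Among the Get1 +/+ arrays, replicate 2 was the highest for 16 of the 33 genes, among them Hopx, Klf4, Zfp750, Trp63, Rora and Prdm1. Replicate 3 was the highest for 13, among them Dlx3, Gata3, Ovol1, Pou2f3 and Cebpa, and replicate 1 for 4. Of the 16 genes highest on Get1 +/+ replicate 2, 12 were also highest on replicate 2 of Get1 -/- skin. The same share over all genes was not counted. Deviations of the replicate 2 arrays from their group means correlated at 0.628 over the 33 genes and at 0.361 over all genes tested. For replicates 1 and 3 these were 0.134 and -0.173 over the 33 genes, against -0.0195 and -0.0251. The median over the 33 genes of the log2 deviation from each gene's mean was -0.088, 0.11 and 0.16 on the Get1 +/+ arrays and -0.19, 0.019 and -0.12 on the Get1 -/- arrays. Get1 +/+ replicate 1 thus lay below Get1 -/- replicate 2, so that by this median the genotypes overlapped.

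Markers of the epidermal layers and of other tissues varied too. The 5 measured granular markers summed to 52175 to 64549 in Get1 +/+ skin and to 27377, 50650 and 51100 in Get1 -/- replicates 1, 2 and 3, with 4 of 5 lower. The 6 suprabasal markers were all lower (122518 to 131589 against 99766 to 120468), and 5 of 6 basal markers were (53793 to 65291 against 52537 to 55242). The 8 hair follicle markers were all lower, with sums of 12055, 19627 and 36773 in Get1 +/+ and 10180 to 15139 in Get1 -/- skin, and Get1 +/+ replicate 3, the highest array for Dlx3, Gata3 and Ovol1, carried the highest sum. All 8 skeletal muscle markers were higher in Get1 -/- skin (88082 to 136801 against 105812 to 153021), and Get1 +/+ replicate 2 had the lowest sum. Of the 8 dermal fibroblast markers 5 were higher (131919 to 161397 against 134584 to 155716), as were 7 of 8 endothelial markers (5693 to 6240 against 6359 to 7584) and 5 of 7 macrophage and lymphoid markers (6852 to 10532 against 8969 to 10486). All 5 melanocyte markers were lower (6805 to 11993 against 5791 to 7793). None of these markers passed the threshold in limma. Of these lists Cd3e alone was below the filter, and none was at 0. The part of these shifts in the differences of the transcription factors was not tested.

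**Figure D4:**
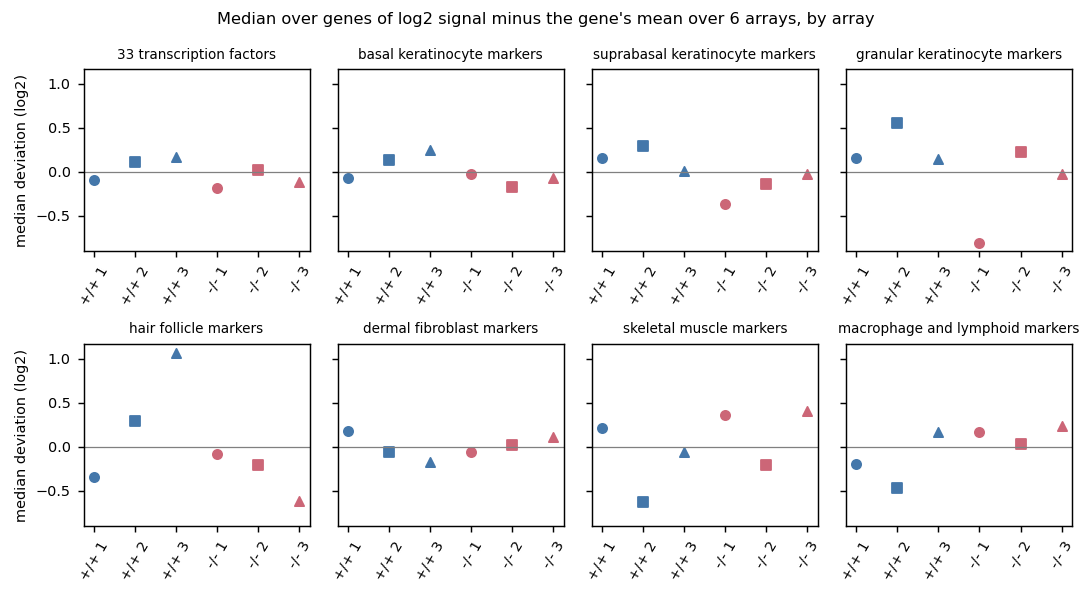
Each point is 1 array (blue Get1 +/+, red Get1 -/-, with circle, square and triangle for replicates 1, 2 and 3). The vertical axis is the median over the measured genes of a list of the log2 signal minus the gene's mean over the 6 arrays. The transcription factors run from -0.19 to 0.16, granular markers are lowest on Get1 -/- replicate 1 and hair follicle markers are highest on Get1 +/+ replicate 3.

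The size of several differences depended on which arrays were compared. Where the actin control was high, Get1 -/- replicate 1 minus the mean of Get1 +/+ replicates 1 and 2 gave -1.74 for Hopx, -1.54 for Rora, -1.49 for Zfp750, -1.14 for Pou2f3 and -0.89 for Klf4 on the log2 scale. Where it was low, the mean of Get1 -/- replicates 2 and 3 minus Get1 +/+ replicate 3 gave -1.12, -0.11, -0.54, -0.75 and -0.14 in the same order. Dlx3 went the other way, with -0.01 on the first set and -1.18 on the second. Cebpb (-0.59 and -0.37) and Prdm1 (-0.56 and -0.27) had lower values on both. Of the 33 genes 21 were lower on the first set, 26 on the second and 17 on both (51.5%, against 27.2% of all genes). Each of these values rests on 1 array of a genotype, and the part of the control signal in them was not tested. Without Get1 -/- replicate 1 the median over the 33 genes was -0.17, and 26 had a lower mean, 24 of them among the 26 over all arrays.

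**Figure D5:**
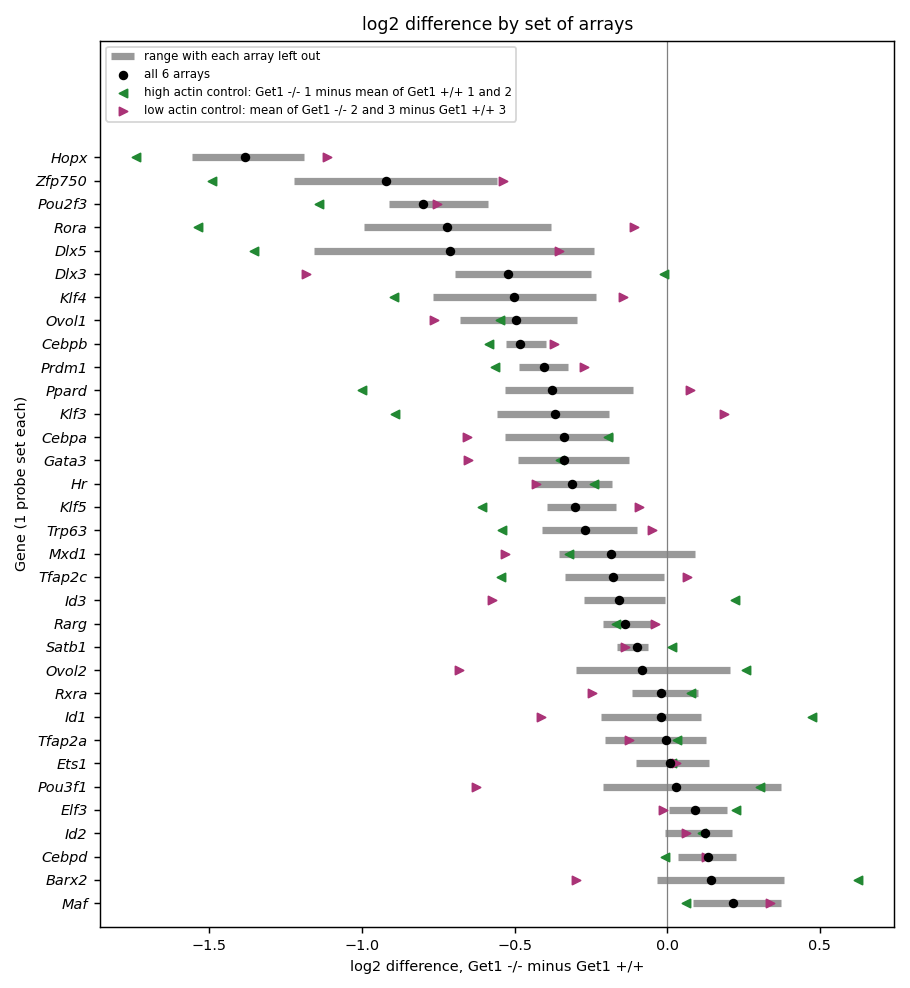
For each gene, the black point is the log2 difference over all 6 arrays and the grey bar is its range when each array was left out in turn. Triangles give the difference within the arrays with a high (pointing left) and a low (pointing right) actin control. Hopx is below -1 in every version, while Rora, Klf4 and Klf3 come near or cross 0 within the second set.

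Other genes of the same network were counted from lists of related genes. Of 25 other measured epidermal transcription factors 19 had a lower mean (median log2 difference -0.19) and 0 passed. The lowest p there belonged to Sp6 (904 ± 301 against 520 ± 24.7, -0.75 ± 0.22), Foxc1 (-0.83 ± 0.26) and Runx1 (-0.60 ± 0.22), all without overlap between genotypes. These act in tooth and hair epithelium, in hair follicle stem cells and in hair and epithelial growth. In that list 5 of 25 lay wholly below Get1 +/+ (20%), against 6.78% of all genes. With the mean of its probe sets Runx1 differed by only -0.26. Of 15 measured targets described for Trp63, 14 had a lower mean, with a median of -0.14. Fras1 (-0.37 ± 0.17), Cldn1 (-0.45 ± 0.28) and Perp (-0.19 ± 0.13) had the lowest p, and 0 passed. At an unadjusted p under 0.05 in limma, 0 of the 15 were lower, where the share of all genes was 4.29%, and 0 were higher. Wholly below Get1 +/+ lay 3 of 15 (20%), against 6.78% of all genes, and 0 lay wholly above. The list shares Krt5, Krt14, Itga6 and Itgb4 with the basal markers above, so the counts are not separate.

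Targets described for PPAR and retinoid receptors had a median of -0.02, with 6 of 10 lower. Crabp2, which carries retinoic acid to its receptors and is itself a retinoid target, read 687, 1001 and 1044 against 408, 520 and 468, a log2 difference of -0.95 ± 0.20 (adjusted p = 0.296). It passed the threshold in limma without Get1 +/+ replicate 1 (adjusted p = 0.0348, with a range up to 0.91 over the alternatives). In that setting 122 of all genes passed (1.07%), against 0.0439% over all 6 arrays. Angptl4, a secreted lipase inhibitor induced through PPARs, read 541, 374 and 433 against 696, 644 and 748 (0.64 ± 0.18, adjusted p = 0.497). Of the 10, 1 (Crabp2) lay wholly below Get1 +/+ and 2 (Angptl4 and Fabp5) wholly above, against 6.78% and 5.2% of all genes. Fabp5, a fatty acid carrier, differed by 0.10 ± 0.09.

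Chromatin regulators of epidermal differentiation had a median of 0.07, with 6 of 18 lower. The Polycomb subunit Suz12 (0.63 ± 0.25) and the deacetylase Hdac2 (0.27 ± 0.14) had higher means, and Hdac1 (-0.34 ± 0.15) a lower one. Dimer partners and cofactors had a median of 0.01, with 10 of 23 lower. Among them were the Max-binding repressor Mxi1 (-0.59 ± 0.19), Max itself (-0.61 ± 0.30) and the E protein Tcf4 (0.47 ± 0.21). Family relatives outside the set had a median of -0.04, with 18 of 33 lower, and the lowest p there belonged to Id4 (2237 ± 230 against 1578 ± 134, -0.50 ± 0.15), Mxi1 and Mxd3 (498 ± 10.9 against 709 ± 101, 0.50 ± 0.17). None of the genes in these lists passed in limma, and how these lists differ from the 33 regulators was not tested.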

How the data were processed

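Expression was measured on 6 arrays, 1 per mouse. The authors deposited linear MAS5 intensities for 45101 probe sets, MAS5 being the tool named in the submitters' processing notes, with its version not given in the sources used here. Those deposited intensities share a 2% trimmed mean (500.0), a sign of scaling by the authors. Here log2 was taken without the 64 control probe sets, and a filter at the median of the mean log2 values (signal 137) left 22519 probe sets. The brightest kept probe set naming a gene alone stood for that gene. Tests used limma 3.58.1 under R 4.3.3 (linear fit over all 6 arrays, eBayes with a trend, two-sided, Benjamini-Hochberg over all 11387 genes), after a check on simulated data. The simulated differences were larger than any of the regulators described here, so the check does not cover differences of their size. Named were all 36 genes, Grhl3 and, from each related list, the 3 genes with the lowest p. The members and lists were chosen with earlier results of these data known, so no list was tested. Sequences are those of RefSeq, and the GC, CCAAT and TATA motifs were added after the data were seen. Alternatives were other scalings, filters, an offset, no trend, array weights, a replicate block, the actin set, the mean of probe sets and each array left out. The number of arrays limits the precision, and detection calls were not used here. Protein sequences were not used here.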

Additional observations from a re-analysis of the deposited data

How the results depend on the processing

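The count of 0 genes past the threshold with a higher mean held in all alternatives. For a lower mean, the count of 0 became 1 with array weights, with the replicate block and without Get1 +/+ replicate 1 (range 0 to 1 over the arrays left out), and the gene was Hopx each time. With the replicate block its adjusted p was 0.0113, and 44 of all genes passed against 5. Same-numbered mice had deviations from their group means with correlations of -0.0195, 0.361 and -0.0251 over the genes tested, so the numbers were not taken as pairs there. Over the kept probe sets these were 0.133, 0.26 and 0.14, and over the 33 genes 0.134, 0.628 and -0.173. The median of the 33 genes stayed between -0.34 and -0.17, and 22 to 28 genes had a lower mean (23 of 28 with the stricter filter). Genotypes did not overlap for 4 genes, for 6 with quantile normalization and 3 with median centring, all of them lower. The shares of all genes wholly below were 6.78%, 6.79% and 3.71%. With the mean of probe sets 9 of the genes did not overlap, of which 8 were lower (7.29% of all genes) and 1 higher (4.27%). With 1 array left out there were 6 to 11, where fewer arrays make overlap less likely by construction. The genes lower at an unadjusted p under 0.05 numbered 7, and 9 with array weights (6.27% of all genes), the replicate block (5.6%) or the actin set (4.69%). With median centring there were 5 lower and 0 higher, against 3.23% and 4.79% of all genes. Of 810 values of named genes under alternatives, 775 kept direction and side of the threshold. Genes near 0 turned sign, and the cause was not tested. With array weights Pou3f1 gave -0.013, Elf3 -0.0037, Rxra 0.022 and Ets1 -0.10. With the actin set as a term Pou3f1 gave -0.16 and Id1 0.030. Tfap2a gave 0.0066 with quantile normalization and 0.0013 with median centring. The mean of probe sets gave 0.019 for Satb1 and -0.11 for Ets1. With each array left out, ranges were -0.21 to 0.37 for Pou3f1, -0.30 to 0.21 for Ovol2, -0.20 to 0.13 for Tfap2a, -0.11 to 0.099 for Rxra, -0.033 to 0.38 for Barx2, -0.36 to 0.093 for Mxd1, -0.22 to 0.11 for Id1, -0.0081 to 0.21 for Id2 and -0.10 to 0.14 for Ets1. The dimmest measured probe sets, those of Barx2, Ovol2, Dlx5 and Elf3, have the least signal over background. Barx2 and Dlx5 read as low as 123, under the filter signal of 137.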
